A study of Mus musculus with 7 samples.

Results

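The genes described here encode the proteins with which endothelial cells (EC) of spinal cord vessels hold to each other and control what crosses them. They are 9 of the 21965 genes in the count table and were listed by name for their known roles, with no threshold on a measured value: *Cldn5*, *Ocln*, *Tjp1*, *Esam*, *Jam2*, *F11r*, *Cdh5*, *Plvap* and *Cav1*. The first 7 belong to cell junctions. *Plvap* and *Cav1* are proteins of endothelial openings and of caveolae, the small membrane pits that carry cargo through the cell. All 9 were among the 15743 genes that passed the filter on low counts. RNA of the contused cord at dpi 3 was compared between 3 animals labelled Bmal1-/- and 4 WT animals, each sequenced singly. The former were 1 male and 2 females, and the latter 2 of each sex. Mice labelled Bmal1-/- carried the Arntl tm1Bra allele in every cell on a C57BL/6 background, and WT mice were C57BL/6 animals (C57Bl/6J for both in the study's methods) that were mostly bought and not littermates. All were young adults with a moderate contusion of 50 kdyn at the level of the ninth thoracic vertebra, and the tissue was a short segment centred on the injury epicenter that also held tissue around it. No library of uninjured cord was analysed here, so the values describe injured tissue only.

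The blood-spinal cord barrier (BSCB) is formed by EC whose neighbours are sealed along their borders. Claudin-5 and occludin span the membrane in tight junctions, and ZO-1 ties them to actin inside the cell. VE-cadherin, encoded by *Cdh5*, forms the adherens junction, while ESAM and the junctional adhesion molecules are immunoglobulin-like proteins of the same borders. EC of a mature barrier hold few caveolae and little PLVAP, which forms the diaphragms of leaky vessels. *Cldn5*, *Cdh5* and *Esam* are typical of EC, whereas *Tjp1*, *Jam2*, *Ocln*, *F11r* and *Cav1* are also used by glia, epithelia or stromal cells. BMAL1 is a clock transcription factor that binds DNA at E-boxes.

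Library totals lay between 38529644 and 44096737 counts. Of the genes tested, 144 fell and 103 rose in the libraries labelled Bmal1-/- (adjusted p under 0.05, quasi-likelihood test of edgeR adjusted by Benjamini-Hochberg), or 118 lower and 154 higher once a trend with GC content and length was removed in each library. *Arntl*, the targeted gene, lies at chr7:113207465-113314126 of GRCm38. It had 24.1, 24.2 and 22.5 CPM (counts scaled to library size) in the libraries labelled Bmal1-/- and 14.7, 15.3, 11.9 and 13.4 in WT. The gene count was thus higher in the libraries labelled as knockouts (log2 fold change 0.77, standard error (SE) 0.10, adjusted p = 0.0155 in the same edgeR test), which goes against the label. The count sums reads over all exons and does not show whether the deleted part is present, and an antisense gene overlaps *Arntl*. *Nr1d1* and *Dbp*, clock genes that BMAL1 activates, were lower in all 3 libraries labelled Bmal1-/- (5.31 to 7.28 and 7.80 to 8.83 CPM) than in WT (29.2 to 36.8 and 25.3 to 39.3 CPM), and were chosen after their values were seen. Both overlap a gene on the opposite strand. Directions are given throughout for libraries labelled Bmal1-/- against WT.

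The upstream sequences of *Cldn5* and *Tjp1* are shown because these were the most abundant genes of the 9 and their windows could be searched for the E-box of BMAL1. Each holds the 250 bases before the RefSeq start on GRCm38.p6, written 5′ to 3′ on the gene's strand. For *Tjp1* this start is an internal one within the GENCODE span given further on, whose longest transcripts begin upstream of it. Capitals mark the GC box GGGCGG or its reverse complement.
Cldn5 (chr16:18776597-18776846, + strand): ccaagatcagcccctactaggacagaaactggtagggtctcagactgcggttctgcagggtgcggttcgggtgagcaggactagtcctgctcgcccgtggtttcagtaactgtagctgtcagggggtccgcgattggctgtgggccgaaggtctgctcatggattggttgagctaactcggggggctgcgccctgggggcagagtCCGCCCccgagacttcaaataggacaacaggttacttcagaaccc
Tjp1 (chr7:65371245-65371494, - strand): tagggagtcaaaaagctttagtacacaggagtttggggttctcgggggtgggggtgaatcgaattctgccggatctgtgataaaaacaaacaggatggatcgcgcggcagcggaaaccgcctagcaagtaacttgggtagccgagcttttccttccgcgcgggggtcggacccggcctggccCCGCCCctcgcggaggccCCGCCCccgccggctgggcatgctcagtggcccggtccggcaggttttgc
The E-box CACGTG, which reads the same on both strands, was in 0 of the 7 windows found for 5 of the genes (*Cldn5*, *Ocln*, *Tjp1*, *F11r* and *Cav1*), and 6.02% of all 32851 windows of that length hold it. The GC box was in 6 of the 7 windows and in 32.7% of all windows. *Tjp1* holds 2 GC boxes and *Cldn5* holds 1. A window without these letters says nothing of binding elsewhere at the gene.

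Per length of transcript, the claudin was by far the most abundant of the 9 genes. *Cldn5* had 350.0 ± 99.7 TPM (a level scaled to exon length and library size, computed here; SD, n = 4) in WT. *Tjp1* followed with 123.0 ± 14.1, *Jam2* with 114.9 ± 13.5 and *Cav1* with 113.5 ± 15.3 TPM (SD, n = 4). *Cdh5* was at 77.7 ± 12.3, *Esam* at 64.5 ± 15.9 and *F11r* at 54.4 ± 9.42 TPM (SD, n = 4). *Plvap* with 31.5 ± 6.04 and *Ocln* with 14.0 ± 1.3 TPM were the lowest (SD, n = 4). *Cldn5* lay above *Tjp1*, *Tjp1* above *Jam2*, *Cav1* above *Cdh5*, *F11r* above *Plvap* and *Plvap* above *Ocln* in each of the 7 libraries. Neighbours in this order were less distinct elsewhere. *Jam2* exceeded *Cav1* in 5 of 7 libraries, *Cdh5* exceeded *Esam* in 5 of 7, and *Esam* exceeded *F11r* in 6 of 7.

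All 9 genes had a negative log2 fold change, from -0.85 for *Cdh5* to -0.06 for *Tjp1*. Only *Cdh5* passed an adjusted p of 0.05, and none was higher. Over all genes tested, 0.915% were called lower and 1.57% in either direction. The median log2 fold change of the 9 was -0.30, and that of all genes tested was -0.0057, with 51.1% of them negative. At an unadjusted p under 0.05, 3 of the 9 were lower (*Cdh5*, *Esam* and *Jam2*), and 12.2% of all genes tested were. The 3 libraries labelled Bmal1-/- lay under all 4 WT libraries for *Cdh5*, *Esam* and *F11r*, an ordering that 13.5% of all genes tested had. For the other 6 genes the genotypes overlapped. WT replicate 3, a male, held the highest value of 7 of the 9 genes and the lowest WT value of the other 2, so that values are also given without it. Tissue of this kind holds many cell types, and fewer EC cannot be told apart from less RNA per EC.

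**Figure D1:**
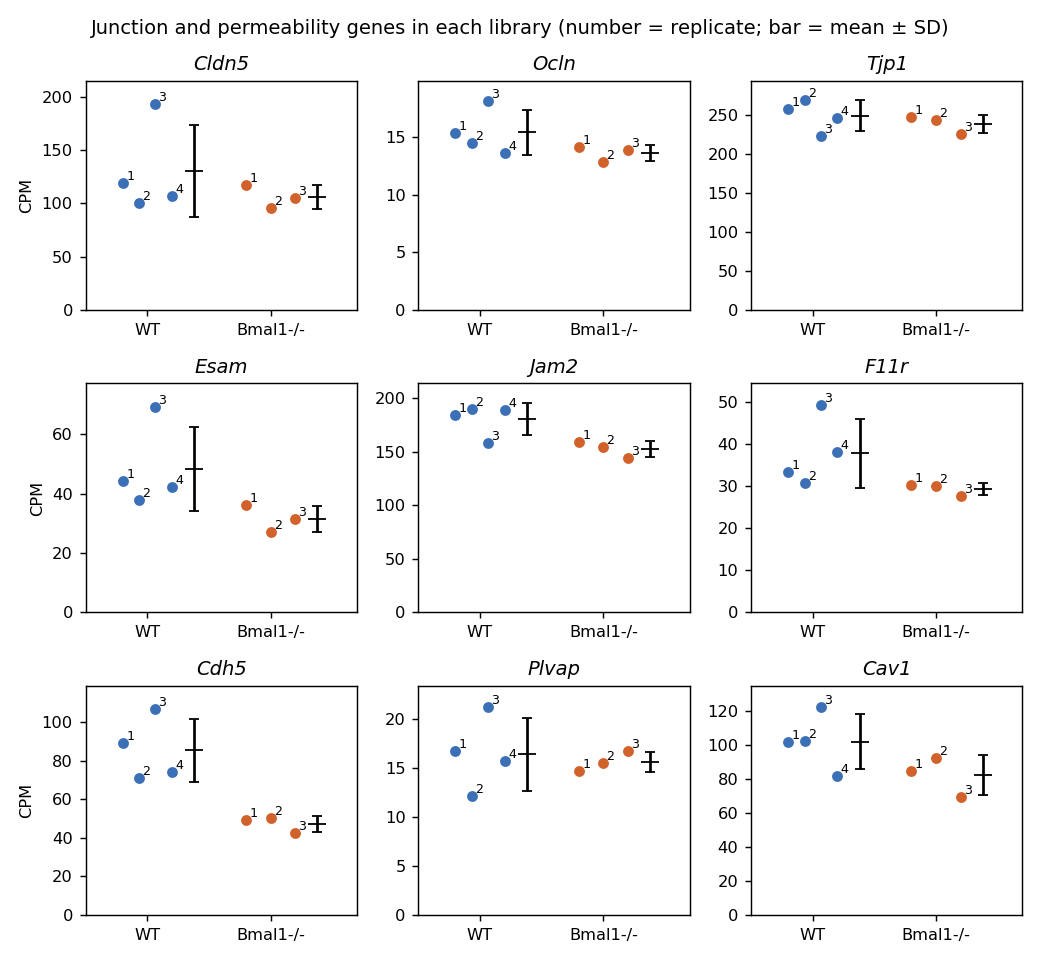
CPM (y axis, from 0) of the 9 genes in each library, with WT in blue, libraries labelled Bmal1-/- in orange, and the mean ± SD as a bar beside each group. Only *Cdh5*, *Esam* and *F11r* have all orange points under all blue points, and WT replicate 3 is the top point for 7 genes.

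Among the tight junction strand proteins, the 2 genotypes overlapped. *Cldn5* (ENSMUSG00000041378, chr16:18776847-18778262) encodes claudin-5, the main sealing claudin of barrier EC. It had 117.5, 95.5 and 104.7 CPM in replicates 1 to 3 labelled Bmal1-/- and 119.5, 100.6, 193.6 and 106.6 CPM in WT replicates 1 to 4. WT replicate 3 stood far above the other 6 libraries, which lay within one range. The means were 105.9 ± 11.1 (SD, n = 3) and 130.1 ± 43.1 CPM (SD, n = 4). This gave a log2 fold change of -0.30 (SE 0.23, adjusted p = 0.443 from edgeR). Without WT replicate 3 it was -0.04.

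*Ocln* (ENSMUSG00000021638, chr13:100496507-100552718) encodes occludin, which regulates the tight junction strand. It had 14.2, 12.8 and 13.9 CPM in the libraries labelled Bmal1-/- and 15.4, 14.5, 18.1 and 13.6 in WT. WT replicate 4 fell within the range of the libraries labelled Bmal1-/-, and WT replicate 3 was again the highest. Its log2 fold change was -0.18 (SE 0.11, adjusted p = 0.365 from edgeR), or -0.09 without WT replicate 3.

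*Tjp1* (ENSMUSG00000030516, chr7:65296165-65527781) encodes ZO-1, the scaffold below tight and adherens junctions. It had 247.3, 243.4 and 225.6 CPM in the libraries labelled Bmal1-/- and 257.9, 269.6, 223.6 and 245.6 in WT. Here WT replicate 3 was the lowest of all 7 libraries. For *Tjp1* the log2 fold change was -0.06 (SE 0.083, adjusted p = 0.656 from edgeR), the smallest of the 9 in size, or -0.11 without WT replicate 3.

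The 3 immunoglobulin-like junction proteins had log2 fold changes from -0.62 to -0.24. *Esam* (ENSMUSG00000001946, chr9:37528078-37538319) encodes an adhesion molecule of EC and platelets. It had 36.1, 27.2 and 31.4 CPM in the libraries labelled Bmal1-/- and 44.5, 37.9, 69.4 and 42.3 in WT. All 3 values lay under the 4 WT values, with WT replicate 2 close above the nearest of them. The means were 31.6 ± 4.42 (SD, n = 3) and 48.5 ± 14.2 CPM (SD, n = 4). The log2 fold change of -0.62 (SE 0.22, adjusted p = 0.187 from edgeR) became -0.40 without WT replicate 3.

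*Jam2* (ENSMUSG00000053062, chr16:84774123-84825928) encodes JAM-B, an adhesion molecule of endothelial borders. It had 158.7, 154.5 and 144.2 CPM in the libraries labelled Bmal1-/- and 183.9, 189.5, 157.9 and 189.1 in WT. WT replicate 3 lay among the libraries labelled Bmal1-/-, and the other WT libraries lay above them. The log2 fold change was -0.24 (SE 0.083, adjusted p = 0.183 from edgeR). Without WT replicate 3 it was -0.30 and passed (adjusted p = 0.0293 from edgeR), so this 1 library decided the call.

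*F11r* (ENSMUSG00000038235, chr1:171437535-171464603) encodes JAM-A, which helps to place the tight junction and is also carried by leukocytes and platelets. It had 30.2, 30.2 and 27.8 CPM in the libraries labelled Bmal1-/- and 33.4, 30.8, 49.3 and 38.1 in WT. The genotypes did not overlap, but WT replicate 2 was within 1 CPM of 2 of the libraries labelled Bmal1-/-. The log2 fold change was -0.37 (SE 0.16, adjusted p = 0.244 from edgeR), or -0.22 without WT replicate 3.

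*Cdh5* fell to 55.5% of its WT mean. The gene (ENSMUSG00000031871, chr8:104101625-104144511) encodes VE-cadherin, the cadherin of endothelial adherens junctions. It had 49.0, 50.3 and 42.6 CPM in the libraries labelled Bmal1-/- and 89.4, 70.7, 106.7 and 74.3 in WT. The gap between the genotypes, from 50.3 to 70.7 CPM, was wider than the whole range of the libraries labelled Bmal1-/-. The means were 47.3 ± 4.12 (SD, n = 3) and 85.3 ± 16.4 CPM (SD, n = 4), with a log2 fold change of -0.85 (SE 0.15, adjusted p = 0.0466 from edgeR). Of the log2 fold changes of all genes tested, 4.29% were as low or lower. The adjusted p was close to the threshold, and 6 of the 7 fits without a single library lost the call, while the fold change ran from -0.94 to -0.72. Without WT replicate 3 it passed with an adjusted p of 0.0165 from edgeR. The call was also lost with limma-voom, upper-quartile normalization, sex as a covariate, a replicate block and the GC content and length trend removed. The DESeq2 Wald test, which called 922 genes lower over all genes, kept *Cdh5* (-0.85, adjusted p = 4.88e-05). RLE size factors and both count filters also kept it, with adjusted p from 0.04695 to 0.04881 in edgeR. An antisense gene, *Gm29682*, overlaps the start of *Cdh5*, and reads of both cannot be told apart if strand was not used in counting.

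Neither gene of permeability was called. *Plvap* (ENSMUSG00000034845, chr8:71497765-71511752) encodes the diaphragm protein that mature barrier EC lack. It had 14.6, 15.5 and 16.7 CPM in the libraries labelled Bmal1-/- and 16.7, 12.1, 21.1 and 15.6 in WT, so that the libraries labelled Bmal1-/- lay wholly inside the WT range. The log2 fold change was -0.07 (SE 0.18, adjusted p = 0.819 from edgeR), and it turned to 0.075 without WT replicate 3. *Gtpbp3* overlaps *Plvap* on the opposite strand and had 926 to 1012 counts.

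*Cav1* (ENSMUSG00000007655, chr6:17306335-17341452) encodes caveolin-1, the coat protein of caveolae. It had 84.7, 92.4 and 69.4 CPM in the libraries labelled Bmal1-/- and 101.8, 102.1, 122.0 and 81.9 in WT. WT replicate 4 was below 2 of the libraries labelled Bmal1-/-, and the log2 fold change was -0.31 (SE 0.15, adjusted p = 0.271 from edgeR), or -0.21 without WT replicate 3. An antisense gene, *Gm15581*, spans *Cav1*.

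**Figure D2:**
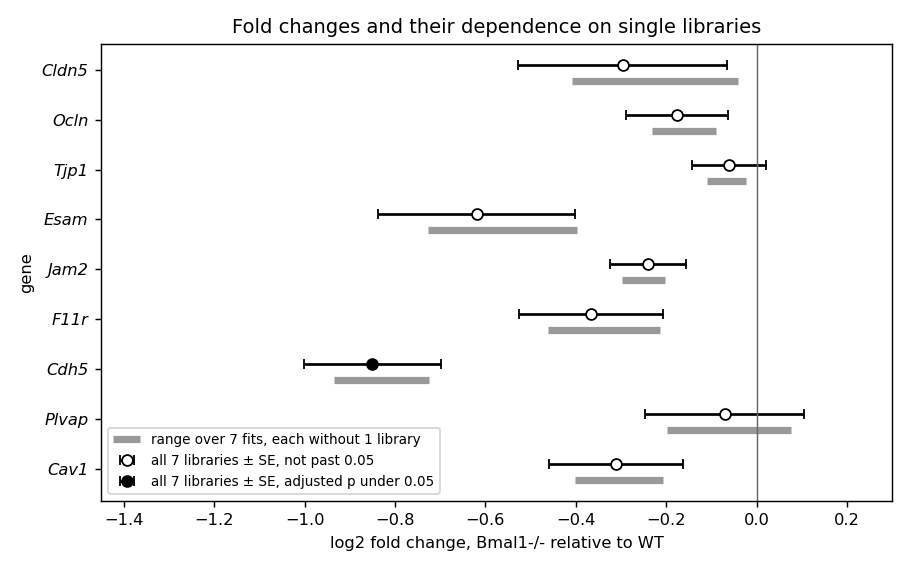
Log2 fold change, Bmal1-/- label against WT (x axis), for the 9 genes, with its SE and, in grey, the range over 7 fits without a single library each. Only *Cdh5* (filled) passed an adjusted p of 0.05, and only the range of *Plvap* crosses 0.

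Within each sex the direction was shared by 8 of the 9 genes, with few animals behind each value. On the log2 CPM scale *Cdh5* differed by -0.68 among females and -1.06 among males, and *Esam* by -0.39 and -0.78. For *Cldn5* the difference was -0.05 among females and -0.46 among males, and for *F11r* it was -0.09 and -0.64. The larger differences among males rested on 1 library labelled Bmal1-/- against WT replicates 3 and 4. *Plvap* differed by 0.08 among females and -0.12 among males. A test of the difference between the sexes gave adjusted p-values from 0.40 to 0.97 over the 9 genes in edgeR, and none passed. In the females alone *Cdh5* had a log2 fold change of -0.69 (adjusted p = 0.0396 from edgeR), a comparison added after seeing the data.

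Other transcripts of EC also had mostly negative fold changes. Of 18 endothelial reference genes, none of them among the 9, 17 had a negative log2 fold change, with a median of -0.60 (-0.36 without WT replicate 3). They ranged from -1.91 for *Esm1* to 0.07 for *Ptprb*. *Esm1* and *Sox18* (-1.015) lay below the -0.85 of *Cdh5*, so its fall was not the largest among endothelial genes. None passed an adjusted p of 0.05 with edgeR, and 11 were lower at an unadjusted p under 0.05 (12.2% of all genes tested). Without WT replicate 3, 5 were called, with both directions counted together (2.8% of all genes tested without it were called lower). That 2.8% is 439 genes, and 291 more were called higher. The mean log2 CPM of the 18 reference genes was 4.98, 4.94 and 4.80 in the libraries labelled Bmal1-/- and 5.40, 5.25, 5.94 and 5.34 in WT. All 3 values lay under the 4 WT values, and WT replicate 3 was the highest. The difference of the means was -0.57, or -0.42 without WT replicate 3.

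Set against that endothelial mean in the same library, *Cdh5* was the only gene of the 9 whose libraries labelled Bmal1-/- all stayed below WT. Its log2 ratio to the reference was 0.63, 0.72 and 0.61 in the libraries labelled Bmal1-/- and 1.09, 0.90, 0.80 and 0.88 in WT. The difference was -0.26, and leaving out each library in turn gave -0.30 to -0.21. With *Pecam1* alone as the reference the difference was -0.44, but the genotypes overlapped. For *Esam* the difference was -0.02, with overlapping values. For *Ocln*, *Tjp1*, *Jam2*, *F11r* and *Plvap* the ratio was higher in all 3 libraries labelled Bmal1-/- than in all WT libraries, by 0.40, 0.51, 0.33, 0.23 and 0.53. Without WT replicate 3 these differences were 0.33, 0.31, 0.12, 0.21 and 0.50, so that those of *Tjp1* and *Jam2* depended most on it. *Cldn5* and *Cav1* were 0.32 and 0.26 higher relative to the reference, with overlap. With *Pecam1* as the reference, the ratios of *Ocln*, *Tjp1*, *Jam2*, *F11r*, *Plvap* and *Cav1* overlapped between the genotypes, that of *Cldn5* was 0.14 higher without overlap and that of *Esam* was 0.19 lower without overlap. No test was run on these ratios.

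**Figure D3:**
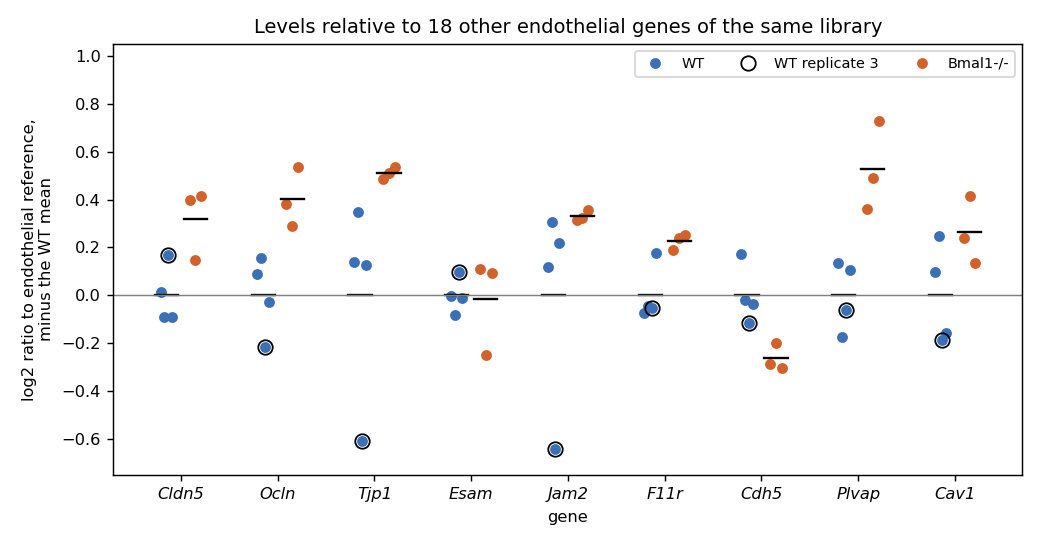
Log2 ratio of each gene to the mean of 18 other endothelial genes in the same library, minus the WT mean (y axis), for WT (blue, with WT replicate 3 ringed) and libraries labelled Bmal1-/- (orange), with short lines at the group means. *Cdh5* alone lies wholly below WT, and 5 genes lie wholly above it.

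How far each gene followed the endothelial reference within a genotype also differed. Deviations of log2 CPM from the genotype means over 7 libraries, which share the totals and TMM factors, were compared as a description. *Cldn5*, *F11r*, *Cdh5* and *Esam* followed the reference with r of 0.952, 0.927, 0.914 and 0.913. *Ocln*, *Plvap* and *Cav1* had r of 0.844, 0.795 and 0.703, and *Tjp1* and *Jam2* moved against it with r of -0.689 and -0.776. These values rested largely on WT replicate 3. Without it, over 6 libraries, *Cdh5* kept an r of 0.878, *Cldn5*, *F11r* and *Esam* had 0.577, 0.578 and 0.475, and *Ocln*, *Plvap* and *Cav1* had 0.133, 0.283 and 0.455. *Tjp1* and *Jam2* turned to 0.326 and 0.577. Among the 9 genes themselves, *Cldn5* and *Esam* were the most alike (r = 0.987) and *Tjp1* and *Plvap* the most opposed (r = -0.894).

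The genes whose deviations were most like those of each junction gene were sought among 14358 genes with a mean of at least 1 CPM. For *Cldn5* the 5 most alike were *Uqcc3*, *Kdr*, *Egfl7*, *Alkbh2* and *Pecam1* (r from 0.996 to 0.993), of which *Kdr*, *Egfl7* and *Pecam1* are endothelial reference genes. For *Esam* they were *Mcrip2*, *Myct1*, *Wdr43*, *Tie1* and *Nme4*, with r of 0.998 for the first. For *Cdh5* they were *Mad2l1bp*, *Tmem88*, *Gm5617*, *Meox1* and *Chmp6*, led by 0.994. *F11r* was most like *Cd53*, a leukocyte tetraspanin (r = 0.999). *Jam2* was most like *Spon1* (r = 0.992) and *Plvap* most like *2410015M20Rik* (r = 0.986). *Tjp1* was most like *Pdk4* (r = 0.983), with *Arntl* the third (r = 0.979), while *Ocln* was most like *Pctp* (r = 0.994) and *Cav1* most like *Parn* (r = 0.990). These likenesses come from a search over many genes with 7 libraries and are given as a description.

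The other genes of these structures were read from lists that hold none of the 9. Of 19 further tight junction genes, 18 could be tested and *Cldn3* could not. None passed, 9 were lower and 9 higher, and the median was -0.0051. *Cldn19*, a claudin of epithelia and Schwann cells, was at -3.18 (adjusted p = 0.130 from edgeR) and *Cldn10* at 0.98 (adjusted p = 0.081). *Cldn11*, the claudin of myelin and the most abundant, was at 0.15. Of 23 further adherens junction genes 17 were lower and none passed, with a median of -0.17, or -0.083 without WT replicate 3. *Ctnnb1*, which encodes the β-catenin that binds cadherins, was at -0.05, while *Cdh1*, the epithelial cadherin, was at -2.37 (adjusted p = 0.226 from edgeR). Of 9 tested genes of caveolae and of transport through the cell, 8 were lower and none passed, with a median of -0.15. Not all of these encode caveola proteins. *Cavin1*, needed for caveolae to form, was at -0.55 (adjusted p = 0.225 from edgeR).

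A list of 18 genes of Wnt and Norrin signalling, by which EC are induced to form a barrier, held 2 called genes. *Ndp*, which encodes the ligand Norrin, had 6.35, 6.78 and 5.94 CPM in the libraries labelled Bmal1-/- and 12.98, 13.55, 10.63 and 13.29 in WT. The log2 fold change was -0.99 (SE 0.12, adjusted p = 0.0107 from edgeR). *Apcdd1*, a Wnt inhibitor that EC express under Wnt signalling, had 43.4, 42.0 and 44.2 CPM in the libraries labelled Bmal1-/- and 56.6, 55.8, 64.1 and 55.9 in WT. Its log2 fold change was -0.43 (SE 0.068, adjusted p = 0.0328 from edgeR). For both genes the genotypes were far apart relative to the spread within each. Across the list 16 of 18 genes had a negative fold change and the median was -0.22. Without WT replicate 3, 7 were called, with both directions counted together, against 2 with it. Over all 15664 genes tested without that library 439 were called lower and 291 higher. With it, 1.57% of all genes tested were called in either direction.

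**Figure D4:**
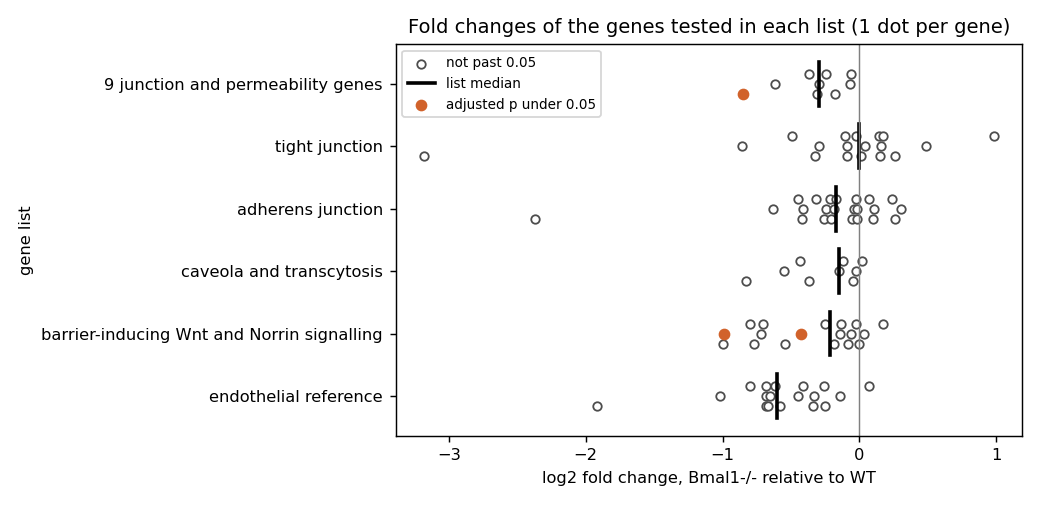
Log2 fold change, Bmal1-/- label against WT (x axis), for each tested gene (1 dot) of the 9 described genes and 5 other lists, with list medians as bars and genes past an adjusted p of 0.05 in orange. The 9 genes have a median of -0.30 and the endothelial reference genes one of -0.60.

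Summed levels of the markers of several other cell types also differed between the genotypes, and their part in the results for the 9 genes was not tested. All 6 neuron genes had a positive fold change and none was called. Their summed level was 4945 to 5895 CPM in libraries labelled Bmal1-/- against 2022 to 4895 for WT. WT replicate 3 held the lowest value of each neuron gene. The median log2 fold change of these genes was 0.38, or 0.15 without WT replicate 3. Pericyte and smooth muscle genes (8 of 11 lower, 1 called, *Tagln* at -1.88) summed to 469.2 to 587.9 against 807.6 to 1038 CPM. *Tagln* alone averaged 90.6 against 332.5 CPM. The 3 genes of this list that were higher were *Kcnj8* (0.09), *Abcc9* (0.26) and *Notch3* (0.33). Platelet and red cell genes (7 of 7 tested lower, none called) summed to 43.0 to 70.3 against 138.6 to 405.8 CPM. Their median log2 fold change was -2.17, or -1.41 without WT replicate 3. Skeletal muscle genes (7 of 7 lower, 6 called) summed to 5.29 to 6.90 against 48.6 to 64.2 CPM. Schwann cell genes (4 of 5 tested lower, none called) summed to 302.6 to 381.7 against 398.5 to 707.5 CPM. Macrophage genes (9 of 10 lower, none called) summed to 2207 to 2792 against 2220 to 4029 CPM, with overlap. Their median log2 fold change was -0.19, or -0.07 without WT replicate 3. For fibroblast genes (8 of 10 lower, none called) the ranges of 428.2 to 2408 and 1271 to 2041 CPM overlapped. Ependymal and epithelial genes (4 of 7 tested lower, none called) summed to 48.7 to 52.5 against 49.7 to 76.9 CPM, also with overlap. Of the astrocyte and the oligodendrocyte genes, 3 of 7 each were lower and none was called. The sums were 14630 to 17440 against 10390 to 14330 CPM for astrocytes. Most of this was *Gfap*, which alone averaged 11640 against 8702 CPM. *Aldh1l1* (-0.47) and *Slc1a3* (-0.44) were among the 3 lower astrocyte genes. The median log2 fold change of the astrocyte list was 0.02, or -0.13 without WT replicate 3. For oligodendrocytes the sums were 23910 to 29420 against 24180 to 35370 CPM, with overlap. Markers of these cord cell types were thus present in every library. *Gp1ba*, *Pmp2*, *Ttr* and *Myh4* were at 0 counts in at least 1 library, and no other listed marker was.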

How the data were processed

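RNASeq was made from 7 contused cords, 1 library per mouse. Per the labels and methods, the authors used a stranded poly-A kit, Tophat2 for alignment to GRCm38 and HTSeq 0.10.0 for gene counts (FastQC 0.10.1 for quality). The annotation release and the strand setting are not given in the sources used here, so genes with an antisense partner are uncertain. The deposited values are raw counts per gene without normalization. Genes were filtered with filterByExpr, scaled with TMM and tested on genotype with edgeR 4.0.16 (limma 3.58.1, R 4.3.3), with Benjamini-Hochberg adjustment over 15743 genes. CPM use TMM factors, and log2 CPM a prior count of 2. TPM and coordinates use GENCODE M21. Spread between mice limits precision more than depth (common dispersion 0.0342). The 9 genes and all lists were chosen with earlier results of these data known. Listed genes were named if called, among the 3 largest in log2 fold change or the 3 most abundant. Alternatives were DESeq2 1.42.0, limma-voom, RLE, upper-quartile, mean count filters of 10 or none beyond 1 count, sex as a covariate, a replicate block and each library left out. Females only and the GC content and length trend were added after seeing the data. The fit was tested on simulated data. Upstream sequences are from a supplied set of windows at RefSeq starts (GRCm38.p6). That set held 5 of the 9 genes, which says nothing of RefSeq itself. Of the search for like genes, 1 result is not reported here.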

Additional observations from a re-analysis of the deposited data

Results flagged for a closer look

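*F11r* was flagged because 1 WT library lay apart from the other WT libraries. Its log2 ratio to the 18 endothelial reference genes was -0.0813 in WT replicate 4 and -0.33, -0.30 and -0.31 in WT replicates 1, 2 and 3. The libraries labelled Bmal1-/- were at -0.07, -0.02 and -0.0044, just above WT replicate 4. In CPM, *F11r* was at 38.1 in that library. The gap between WT replicate 4 and its neighbour exceeded Dixon's critical value for 4 samples. Chance flags about 1 in 20 groups, and 18 sets of WT values were examined.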

How the results depend on the processing

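Among 153 values of the 9 genes, each under 17 alternatives, 138 kept their direction and their side of the threshold. The 11 that lost a call were all *Cdh5*: -0.83 with limma-voom, -0.88 with upper-quartile normalization, -0.85 with sex as a covariate, -0.80 with the GC content and length trend removed, -0.89 with a replicate block, and 6 of the 7 fits without 1 library (-0.94 to -0.72 over the 7). The number of the 9 called lower was then 0, and it ran from 0 to 2 with each library left out. *Jam2* passed without WT replicate 3 (-0.30, in a range of -0.30 to -0.20). *Plvap* turned positive without WT replicate 3 (0.075), in females only (0.070) and with the GC content and length trend removed (0.011). The median of the 9 ran from -0.36 to -0.21 with each library left out. Over all genes, 144 lower and 103 higher calls became 922 and 573 with DESeq2, 467 and 290 in females only, 118 and 154 with the trend removed, and 27 to 439 and 30 to 291 with each library left out. Females only and single libraries left out use fewer samples, and the causes of these changes were not tested.

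The replicate numbers did not pair the samples: deviations of same-numbered libraries correlated at -0.17, 0.18 and -0.29. With a replicate block 0 genes were called lower and 0 higher, and *Cdh5* was at -0.89 (adjusted p = 0.344 from edgeR). That fit spends more terms on the same 7 libraries and so has less power. WT replicate 4 had no library labelled Bmal1-/- of its number. Not every library correlated best with its own number.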
